A study of Homo sapiens and Mus musculus with 4 samples.

Results

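The messages of 9 pan-T surface glycoproteins were read in 4 bulk RNA-seq libraries of lymphocyte cell lines. The genes were THY1, CD2, CD5, CD6, CD7, CD44, CD52, CD96 and CD226, taken as a fixed list of symbols: 9 of the 32738 human rows and the 9 mouse rows of the same symbols among 27998, or 18 of 60736 rows in all. Each line had 1 library. The human lines both come from T-cell leukaemias: Jurkat stands for CD4+ T cells in the study, and TALL104, which was cultured with IL-2, for CD8+ T cells. The mouse lines were EL4, from a T lymphoma and used as CD4+ cells, and IVA12, a hybridoma of the B lineage. None of the lines was described as genetically modified or treated, and the lines were grown in different media. With 1 library per line there was no replicate error and no test could be made, so a difference is described by its size and by the counting error of the reads.

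The proteins made by these genes sit on the T-cell surface and tune adhesion and signalling around the T-cell receptor. CD2 binds CD58 in humans and CD48 in mice and brings the T cell and its partner cell together. CD5 and CD6 are related receptors built from scavenger-receptor cysteine-rich domains, and CD6 binds ALCAM on other cells. CD7 is one of the earliest surface markers of the T lineage and binds SECTM1. CD44 is a hyaluronan receptor and is a marker of activated and memory T cells. CD226 and CD96 are receptors of the immunoglobulin superfamily that share the ligand PVR, and CD226 is activating. THY1 and CD52 are small glycoproteins held in the membrane by a glycosylphosphatidylinositol (GPI) lipid anchor, and CD52 is the target of the antibody alemtuzumab. THY1 marks T cells in the mouse, whereas in humans it is better known from fibroblasts and neurons.

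Levels were given as FPKM (fragments per kilobase of gene length, scaled to the counted reads of the library), so that genes can be set side by side within a library. The whole reads behind each value were recovered from the FPKM steps, and the libraries held between 25286728 and 34783047 reads. Brackets hold 95% exact Poisson intervals, which cover counting error only, since PCR copies and differences between cultures are not included. Orders and ratios between genes also rest on the gene lengths behind the FPKM, which these intervals do not cover. A gene was taken as detected at 1 FPKM or more. The lines were checked against lineage markers. Of 6 T-cell markers in the table (CD3D, CD3E, CD3G, CD247, BCL11B and CD28), 6 were detected in Jurkat, 5 in TALL104 and 6 in EL4, where they summed to between 516 and 753 FPKM, against 2 markers and 2.65 FPKM in IVA12. Among B-cell markers, IVA12 had Jchain at 1289 FPKM, Cd79b at 163 and Ms4a1 at 46.5, while Pax5, a defining B-cell gene, was near 0 at 0.156 FPKM. B-cell markers were detected in the T-cell lines too, the highest being CD79A at 16.5 FPKM in Jurkat and 24.6 in TALL104, and Cd22 at 1.75 in EL4. Of 5 myeloid markers, 1 was detected in TALL104 and 1 in EL4, at no more than 1.65 FPKM summed.

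For 4 human genes the 250 bases before the RefSeq transcription start are shown, because they had the largest ratios of FPKM + 1 between Jurkat and TALL104 (CD44, CD52 and CD96; on FPKM itself the ratio of THY1, from 3 reads in TALL104, was above those of CD52 and CD96) or were the highest of the list in Jurkat (CD2). The windows came from RefSeq promoters (build GRCh38.p14), of which 5 of the 9 human genes had one, and each was placed in hg19 by its single exact match on the chromosome. All 4 lie on the + strand and are written 5′ to 3′, with CG dinucleotides in capitals.

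CD44, chr11:35160468-35160717: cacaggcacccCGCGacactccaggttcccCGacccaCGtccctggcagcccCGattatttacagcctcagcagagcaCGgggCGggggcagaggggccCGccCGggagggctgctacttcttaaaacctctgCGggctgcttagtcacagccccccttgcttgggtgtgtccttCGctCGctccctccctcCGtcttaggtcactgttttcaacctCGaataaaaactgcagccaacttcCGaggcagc
CD52, chr1:26644199-26644448: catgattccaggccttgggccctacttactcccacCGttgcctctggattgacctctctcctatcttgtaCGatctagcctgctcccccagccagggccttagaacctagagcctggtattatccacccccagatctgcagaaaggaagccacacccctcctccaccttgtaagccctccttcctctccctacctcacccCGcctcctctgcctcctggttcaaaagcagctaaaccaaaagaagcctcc
CD96, chr3:111260794-111261043: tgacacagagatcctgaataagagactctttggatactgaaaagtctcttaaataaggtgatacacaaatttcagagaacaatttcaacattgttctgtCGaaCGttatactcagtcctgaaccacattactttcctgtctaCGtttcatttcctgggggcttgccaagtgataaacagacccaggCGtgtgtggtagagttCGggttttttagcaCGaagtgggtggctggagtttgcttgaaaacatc
CD2, chr1:117296802-117297051: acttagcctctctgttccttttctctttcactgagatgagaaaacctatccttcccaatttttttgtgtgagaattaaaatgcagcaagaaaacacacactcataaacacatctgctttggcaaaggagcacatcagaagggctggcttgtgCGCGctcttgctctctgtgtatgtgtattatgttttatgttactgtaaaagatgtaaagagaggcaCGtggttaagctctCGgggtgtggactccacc

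The CD44 window held 15 CG dinucleotides, the CD96 window 6, the CD2 window 4 and the CD52 window 3, against a median of 11 over 35116 RefSeq windows of the same length. The GC content was 62.4% for CD44, 56.4% for CD52, 42.8% for CD2 and 42.0% for CD96. CD44 was thus the only one of these 4 above the median CG number. The letters GGAA, the core of ETS-family sites, were searched on both strands and occurred 2 times before CD44, 3 times before CD52, 2 times before CD96 and 2 times before CD2, as they did at least once in 92.7% of all windows. The letters TGTGGT, the core of RUNX sites, occurred 2 times before CD96, on either strand, and were not found in the other 3 windows, and 11% of all windows held them. These matches describe the letters only. The annotated CD44 gene starts upstream of its window, at 35160429, and the CD96 window lies inside the annotated CD96 gene, which starts far upstream at 111011566.

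Across the 4 lines the panel was not expressed as a block. Of the 9 genes, 5 (CD2, CD5, CD52, CD96 and CD226) were detected in all 3 T-cell lines. Each of the other 4 was below 1 FPKM in exactly 1 T-cell line: CD44 in Jurkat, THY1 in TALL104, and CD6 and CD7 in EL4. Cd226 in EL4 was at the detection level, with 1.03 FPKM (0.814 to 1.28). Cd6 in EL4 was low and not absent, at 0.503 FPKM from 55 reads. Only CD2 and CD52 were detected in all 4 lines. Jurkat and TALL104 had 8 detected genes each, EL4 had 7 and IVA12 had 4, which were Cd2, Cd6, Cd44 and Cd52. Summed over the 9 genes, Jurkat had 193 FPKM, TALL104 1405, EL4 762 and IVA12 149, or 0.0762%, 0.557%, 0.237% and 0.0461% of the FPKM on each library's own species. In each library the highest single gene carried much of that sum, from 44.1% for CD52 in TALL104 to 76.9% for Thy1 in EL4.

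**Figure D1:**
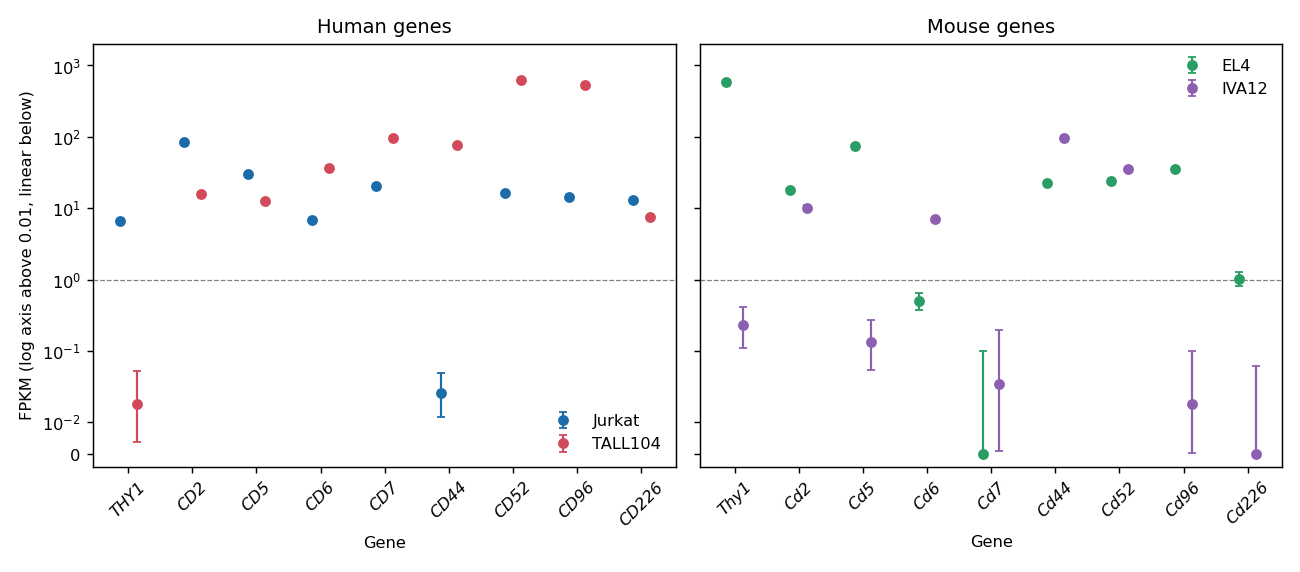
FPKM of the 9 glycoprotein genes in the human lines (left) and the mouse lines (right), with 95% counting intervals as bars and the detection level of 1 FPKM as a dashed line; the axis is logarithmic above 0.01 and linear below. Every T-cell line falls below this level somewhere in the panel: CD44 at 0.0257 FPKM in Jurkat, THY1 at 0.0179 in TALL104, and Cd6 at 0.503 and Cd7 at 0 in EL4.

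The order of the genes differed between the lines. In Jurkat it ran CD2, CD5, CD7, CD52, CD96, CD226, CD6, THY1 and CD44, and only the intervals of CD6 and THY1 overlapped between neighbours. In TALL104 it ran CD52, CD96, CD7, CD44, CD6, CD2, CD5, CD226 and THY1, with no neighbours overlapping. In EL4 it ran Thy1, Cd5, Cd96, Cd52, Cd44, Cd2, Cd226, Cd6 and Cd7, and Cd52 and Cd44 overlapped. In IVA12 it ran Cd44, Cd52, Cd2 and Cd6, followed by Thy1, Cd5, Cd7, Cd96 and Cd226, whose intervals overlapped from each to the next. Among own-species genes with at least 1 FPKM, 5 of the panel lay in the top 10% in TALL104, 2 in EL4, and 1 each in Jurkat and IVA12. CD52 and CD96 ranked 23rd and 27th of all human genes in TALL104, and Thy1 ranked 65th of all mouse genes in EL4.

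The comparison of Jurkat with TALL104 asked how the panel differs between a CD4-type and a CD8-type human T-cell leukaemia line. All 9 genes differed by more than 1.5-fold on the scale of FPKM + 1, the threshold at which a gene is called here, 4 higher in Jurkat and 5 higher in TALL104. Of all 32738 human genes, 25.3% were called, 13.8% higher in Jurkat and 11.4% higher in TALL104. Of the 12214 human genes with at least 1 FPKM in either line, which all 9 reached, 62.6% were called, 34.2% higher in Jurkat and 28.4% higher in TALL104. The median log2 ratio of Jurkat over TALL104 was -2.15 over the 9 genes and 0.00 over all human genes. The genes that reached 1 FPKM in Jurkat and in TALL104 alike had a median of 0.10, so ratios near that value lie at the middle of the genes.

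CD44 (ENSG00000026508, chromosome 11, 35160429 to 35253949, hg19) had the largest difference of the 9. It had 0.0257 FPKM (0.0118 to 0.0488) in Jurkat, from 9 reads, and 76.4 FPKM (75.4 to 77.4) in TALL104, from 21786 reads. The log2 ratio on FPKM + 1 was -6.24, and 99.9% of human genes had a smaller absolute ratio. The FPKM ratio itself was 2970 (1565 to 6497). The human CD44 row also had 10 reads in EL4 and 16 in IVA12, at 0.0309 and 0.0629 FPKM, and the Jurkat interval overlapped both, so CD44 in Jurkat was not above the level read from cells with no human gene. CD44 overlaps 3 long non-coding RNA genes in the annotation, 2 of them on the opposite strand. CD52, CD96 and CD226 overlap the opposite-strand genes UBXN11, ZBED2 and DOK6, and mouse Cd52 and Cd7 overlap Crybg2 and Gm11775. CD96 also overlaps the pseudogenes ATP6V0CP2 and NT5C3AP2 on its own strand. On the opposite strand it overlaps the pseudogene NECTIN2P1 and a long non-coding RNA gene. CD6 and mouse Cd44 overlap the opposite-strand small nuclear RNA genes RNU6-933P and Gm23731. The strand setting of the counting is not given in the sources used here, so reads of such partners cannot be told apart.

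CD52 and CD96 were the most abundant messages of the panel in TALL104. CD52 (ENSG00000169442, chromosome 1, 26644449 to 26647014) had 16.2 FPKM (14.9 to 17.7) in Jurkat and 619.8 (610.4 to 629) in TALL104, and its log2 ratio was -5.17. CD96 (ENSG00000153283, chromosome 3, 111011566 to 111384597) had 14.3 FPKM (13.8 to 14.8) in Jurkat and 541 (538 to 545) in TALL104, and its log2 ratio was -5.15. Both were thus expressed in the 2 human lines but about equally much higher in TALL104, by an FPKM ratio of 38.2 (35.0 to 41.7) for CD52 and 37.9 (36.5 to 39.4) for CD96. The 88431 reads of CD96 made up 0.312% of all reads of TALL104. CD96 is also known from natural killer cells, and of 4 natural killer markers (NCAM1, KLRD1, KLRF1 and NCR1) 2 were detected in TALL104, summing to 56.7 FPKM, against 0 and 0.146 FPKM in Jurkat. The part of this programme in the CD96 difference was not tested. In a bulk library, fewer cells with a message and less message per cell cannot be told apart.

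CD6 and CD7 were moderately higher in TALL104. CD7 (ENSG00000173762, chromosome 17, 80272744 to 80275484) had 20.7 FPKM (19.8 to 21.6) in Jurkat and 95.4 (93.2 to 97.6) in TALL104, and its log2 ratio was -2.15. CD6 (ENSG00000013725, chromosome 11, 60739152 to 60787849) had 6.94 FPKM (6.59 to 7.31) in Jurkat and 36.8 (35.9 to 37.7) in TALL104, and its log2 ratio was -2.25. The intervals of the lines were apart for both genes.

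Toward Jurkat, CD2 was the highest gene and THY1 the one with the widest ratio. CD2 (ENSG00000116824, chromosome 1, 117297052 to 117311851) had 86.0 FPKM (83.7 to 88.4) in Jurkat and 15.6 (14.5 to 16.8) in TALL104, and its log2 ratio was 2.39. CD5 (ENSG00000110448, chromosome 11, 60869961 to 60895324), a receptor that dampens T-cell receptor signalling, had 29.8 FPKM (28.8 to 30.9) in Jurkat and 12.5 (11.8 to 13.2) in TALL104, and its log2 ratio was 1.2. CD226 (ENSG00000150637, chromosome 18, 67498394 to 67629039) had the narrowest human difference, with 12.9 FPKM in Jurkat (12.3 to 13.5) and 7.54 (7.04 to 8.07) in TALL104, and its log2 ratio was 0.70. At a 2-fold threshold CD226 was no longer called.

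THY1 (ENSG00000154096, chromosome 11, 119286186 to 119295695) had 6.52 FPKM (6.18 to 6.88) in Jurkat, from 1344 reads, and 0.0179 (0.00368 to 0.0522) in TALL104, from 3 reads. The log2 ratio was 2.89, and the FPKM ratio was 365 (125 to 1773). The level in TALL104 overlapped that of the human THY1 row in IVA12, 0.0134 FPKM from 2 reads. THY1 is a marker of stromal cells in humans, and 5 stromal markers (COL1A1, COL1A2, COL3A1, DCN and PDGFRB) summed to 0.418 FPKM in Jurkat and 0.496 in TALL104, with 0 detected. The annotation places 2 long non-coding RNA genes on the opposite strand of THY1.

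**Figure D2:**
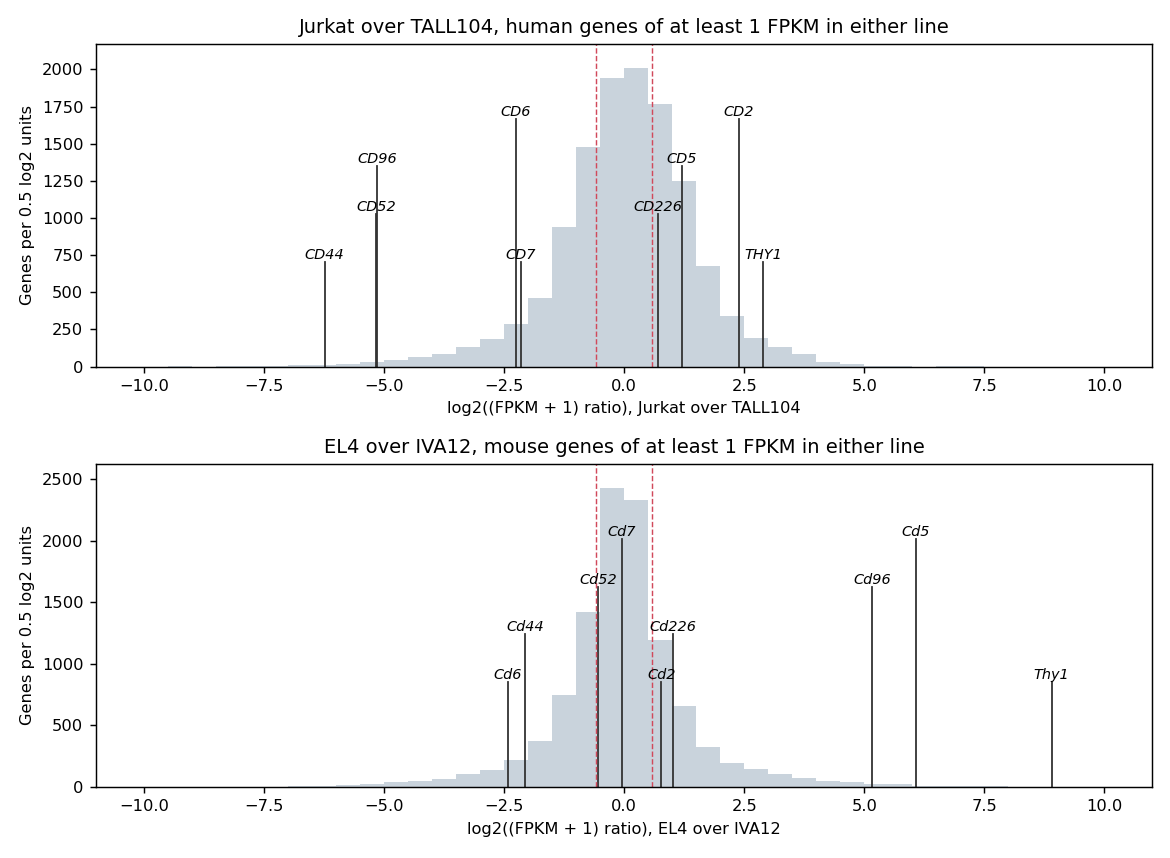
Histogram of log2((FPKM + 1) ratio) over genes with at least 1 FPKM in either line, for Jurkat over TALL104 (top) and EL4 over IVA12 (bottom), with the 9 glycoprotein genes marked by labelled lines whose heights carry no value and the 1.5-fold threshold dashed. The human genes fall on both sides, from -6.24 for CD44 to 2.89 for THY1, and the mouse genes run from -2.42 for Cd6 to 8.90 for Thy1; Cd7 is drawn although it is below 1 FPKM in both mouse lines.

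The comparison of EL4 with IVA12 set a mouse T-cell line against a B-lineage line. Of the 9 mouse genes, 5 were called higher in EL4 (Thy1, Cd2, Cd5, Cd96 and Cd226), 2 higher in IVA12 (Cd6 and Cd44), and 2 were not called (Cd7 and Cd52). Of all 27998 mouse genes, 21.0% were called, 9.75% higher in EL4 and 11.2% higher in IVA12. Of the 10801 with at least 1 FPKM in either line, which 8 of the 9 reached, 50.3% were called, 23.8% higher in EL4 and 26.5% higher in IVA12. The median log2 ratio of EL4 over IVA12 was 0.77 over the 9 genes and 0.00 over all mouse genes.

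Thy1, Cd5 and Cd96 were strongly expressed in EL4 and at or near background in IVA12. Thy1 (ENSMUSG00000032011, chromosome 9, 44043384 to 44048579, mm10) had 586 FPKM (579 to 592) in EL4, from 32669 reads, and 0.228 (0.109 to 0.419) in IVA12, from 10 reads. Its log2 ratio was 8.90. The mouse Thy1 row had 6 reads in TALL104, at 0.122 FPKM (0.0448 to 0.266), which overlapped the level in IVA12.

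Cd5 (ENSMUSG00000024669, chromosome 19, 10717116 to 10739002) had 75.3 FPKM (73.2 to 77.4) in EL4 and 0.134 (0.0538 to 0.276) in IVA12, from 7 reads, and its log2 ratio was 6.07. Cd96 (ENSMUSG00000022657, chromosome 16, 46035657 to 46120251) had 35.6 FPKM (34.2 to 37) in EL4 and 0.0181 (0.000458 to 0.101) in IVA12, from 1 read. Its log2 ratio was 5.17, and its FPKM ratio of 1965 had an interval of 352 to 77635. Cd5 is also carried by a subset of mouse B cells, and in IVA12 it was at the same low level as Thy1 within counting error.

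Cd2 and Cd52 were shared by both mouse lines. Cd2 (ENSMUSG00000027863, chromosome 3, 101275899 to 101287939) had 17.8 FPKM (16.7 to 19.0) in EL4 and 9.99 (9.08 to 11) in IVA12, and its log2 ratio of 0.77 was no longer past a 2-fold threshold. Cd52 (ENSMUSG00000000682, chromosome 4, 134082448 to 134095082) had 23.8 FPKM (22.3 to 25.4) in EL4 and 35.0 (32.9 to 37.2) in IVA12. The log2 ratio of Cd52 was -0.54, just inside the threshold, and the interval of its FPKM ratio, 1.34 to 1.61, lay above 1.

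Cd44 and Cd6 were higher in the B-lineage line. Cd44 (ENSMUSG00000005087, chromosome 2, 102811141 to 102901665) had 22.4 FPKM (21.8 to 23.1) in EL4 and 96.5 (95.1 to 98.0) in IVA12, where it was the highest gene of the panel, and its log2 ratio was -2.06. Cd6 (ENSMUSG00000024670, chromosome 19, 10789341 to 10830058) had 0.503 FPKM (0.379 to 0.654) in EL4, from 55 reads, and 7.04 (6.49 to 7.62) in IVA12, from 606 reads, a log2 ratio of -2.42. Beside Cd6 in IVA12, the T-cell markers Cd28 and Cd3g were detected at 1.23 and 1.15 FPKM, while Cd3d had 0.0299 and Cd3e 0.0275 FPKM; their part in the Cd6 level was not tested.

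Cd226 and Cd7 were the lowest of the panel in the mouse. Cd226 (ENSMUSG00000034028, chromosome 18, 89176967 to 89272229) had 1.03 FPKM (0.814 to 1.28) in EL4 and no read in IVA12, where the interval reached 0.0619 FPKM. Its recovered length rests on 1 library, so a factor common to its reads and length could have been missed. Cd7 (ENSMUSG00000025163, chromosome 11, 121036747 to 121039418) had 0 reads in EL4 and 1 read in IVA12, at 0.0349 FPKM (0.000884 to 0.194). In both mouse lines Cd7 was therefore not detectable above a single read, whereas human CD7 was detected in both human lines.

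CD5 and CD6 lie next to each other in both genomes, on the same strand and with no protein-coding gene between them, 82.1 kb apart on human chromosome 11 and 50.3 kb apart on mouse chromosome 19. Their levels went in opposite directions in each pair of lines. The FPKM ratio of CD5 over CD6 was 4.30 in Jurkat (4.04 to 4.57) and 0.339 (0.318 to 0.361) in TALL104. In the mouse it was 149.7 in EL4 (115 to 199) and 0.0190 (0.00761 to 0.0394) in IVA12. CD5 was therefore the higher of these neighbours in Jurkat and EL4, and CD6 in TALL104 and IVA12.

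CD96 and CD226 share PVR as a ligand. On the gene lengths behind the FPKM they were nearly balanced in Jurkat, with an FPKM ratio of CD96 over CD226 of 1.11 (1.05 to 1.18). That length was 3957 bases for CD226, whose annotated exons sum to 13659, and 5762 for CD96, whose annotated exons sum to 5621. A longer length for CD226 would raise the ratio. The ratio was 71.8 (67.1 to 76.9) in TALL104 and 34.6 in EL4 (27.6 to 43.9). In all 3 T-cell lines CD96 was the higher of the 2 receptors. In IVA12 Cd96 had 1 read and Cd226 was listed at 0.

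**Figure D3:**
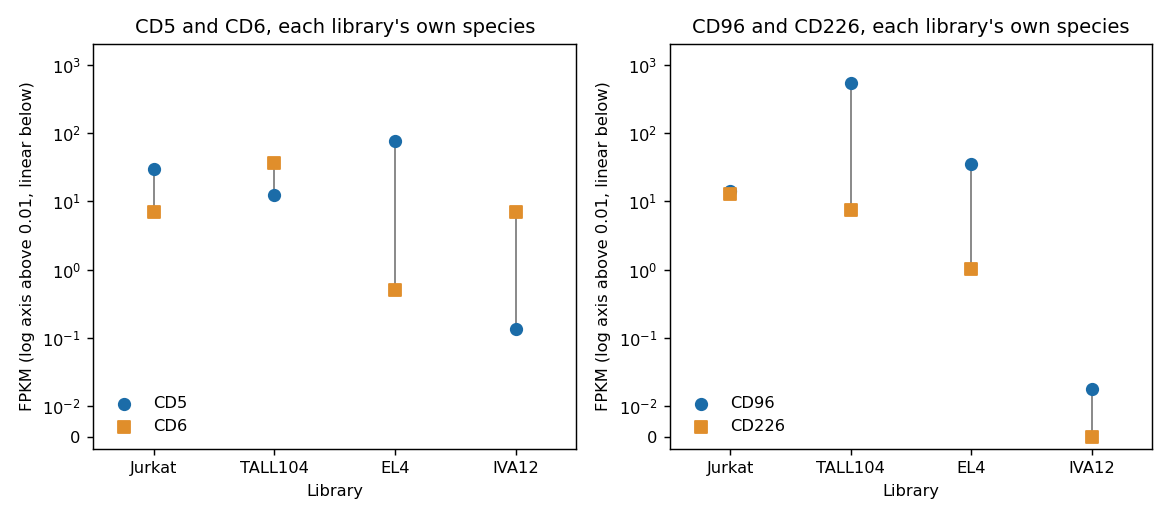
FPKM of CD5 and CD6 (left) and of CD96 and CD226 (right) in each library, using the genes of the library's own species, with a line joining the pair; the axis is logarithmic above 0.01 and linear below. CD5 over CD6 changes from 4.30 in Jurkat to 0.339 in TALL104 and from 149.7 in EL4 to 0.0190 in IVA12, and CD96 over CD226 from 1.11 in Jurkat, where the points overlap, to 71.8 in TALL104; the IVA12 pair rests on 1 read.

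The GPI-anchored pair also differed in which member led. CD52 over THY1 was 2.49 in Jurkat (2.25 to 2.75) and 0.0406 in EL4 (0.0380 to 0.0434), so EL4 alone among the 4 libraries had more THY1 than CD52. In TALL104 CD52 stood at 619.8 FPKM beside 3 reads of THY1, and in IVA12 the ratio was 153 (83.1 to 321). The genes that build and attach the GPI anchor were measured as a list of 28. Of the 27 human genes in the table, 9 were called higher in Jurkat and 3 in TALL104, beside 34.2% and 28.4% of human genes with at least 1 FPKM in either line, so the share higher in Jurkat was near the background. The balance was 3 against 3 at a 2-fold threshold and 6 against 4 when the libraries were scaled by the median ratio. The median log2 ratio was -0.01. PGAP3, which remodels the anchor's lipid, had 0.972 FPKM (0.808 to 1.16) in Jurkat and 4.57 (4.17 to 5.0) in TALL104, and PIGP had 4.58 (4.33 to 4.84) and 1.17 (1.03 to 1.32). Of the 28 mouse genes, 4 were called higher in EL4 and 10 in IVA12, beside 23.8% and 26.5% of mouse genes at that level, with a median of -0.32. At 2-fold the mouse counts were 4 and 5. Piga and Pigh, which act in the first step of anchor synthesis, were higher in EL4, with Piga at 11.9 FPKM (11.4 to 12.3) against 2.05 (1.84 to 2.28) and Pigh at 8.45 (7.81 to 9.13) against 0.791 (0.581 to 1.05).

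Ligands and counter-receptors of the panel were read as a list of 13 in each species. In the human pair 5 were called higher in Jurkat and 4 in TALL104, all among the 9 with at least 1 FPKM in either line, a level at which 34.2% and 28.4% of human genes were called in these directions. The median log2 ratio was 0.04 over the 13 and 0.97 over those 9, and it was 0.34 and 1.36 over the 13 with pseudocounts of 0.1 and 0.01. LGALS1, the lectin galectin-1, which binds CD7 among other glycoproteins, had 4.39 FPKM (3.76 to 5.11) in Jurkat and 229 (224 to 235) in TALL104, the same direction as CD7. ALCAM, the ligand of CD6, had 4.69 FPKM (4.42 to 4.97) in Jurkat and 0.0590 (0.0305 to 0.103) in TALL104, the reverse of CD6 itself. CD58, the human ligand of CD2, had 8.82 FPKM (8.10 to 9.59) in Jurkat and 18.3 (17.1 to 19.5) in TALL104, the reverse of CD2. PVR, the ligand of CD96 and CD226, had 3.95 FPKM (3.60 to 4.31) in Jurkat and 1.41 (1.19 to 1.67) in TALL104, the same direction as CD226 and the reverse of CD96. CD58 and PVR were singled out after their values were seen.

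In the mouse pair 4 of the 13 were called higher in EL4 and 2 in IVA12. These were all among the 7 with at least 1 FPKM in either line. At that level 23.8% of mouse genes were called higher in EL4 and 26.5% in IVA12. The balance over the 13 turned with the pseudocount, to 4 against 5 at 0.1 and 5 against 6 at 0.01. The median log2 ratio was 0.00 over the 13 and 1.23 over the 7 that reached 1 FPKM in either line. Lgals1 had 1047 FPKM (1035 to 1060) in EL4 and 1.73 (1.21 to 2.41) in IVA12. Cd48, the ligand of mouse CD2, had 45.5 FPKM (43.4 to 47.7) in EL4 and 0.798 (0.511 to 1.19) in IVA12, a wider difference than that of Cd2. Sectm1a, one of 2 mouse relatives of the human CD7 ligand SECTM1, had 7.76 FPKM (7.04 to 8.53) in EL4, where Cd7 was listed at 0. The other relative, Sectm1b, had 1 read in EL4 and 0 in IVA12. Pvr was higher in IVA12, at 14.7 FPKM (14.1 to 15.3) against 3.35 (3.10 to 3.62) in EL4. Sectm1a, Sectm1b and Pvr, too, were singled out after their values were seen.

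Other receptors were read as a list of 4 human genes (TIGIT, PVRIG, CRTAM and CD244), named for sharing a ligand with the panel. No ligand of CRTAM was among the ligands read here. Of the 4 genes, 2 were called higher in TALL104 and 0 in Jurkat. Only these 2 reached 1 FPKM in either line. At that level 28.4% of human genes were called higher in TALL104 and 34.2% in Jurkat. CD244, which binds CD48, had 2.22 FPKM (1.94 to 2.53) in Jurkat and 14.8 (14.0 to 15.7) in TALL104, and CRTAM had 0.0537 (0.0174 to 0.125) and 2.28 (1.95 to 2.65). Of the 4 mouse symbols, Pvrig and Cd244 were not matched to a row, so their levels were not read. Of the 2 mouse genes matched, Tigit, an inhibitory receptor for PVR, had 6.98 FPKM (6.08 to 7.97) in EL4 and 1 read in IVA12, and Crtam was listed at 0 in both lines.

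Proteins that bind the cytoplasmic tails of the panel or act just behind them were read as a list of 15. In the human pair 5 were called higher in TALL104 and 0 in Jurkat, with a median log2 ratio of -0.32. The share higher in TALL104 was near the 28.4% of human genes with at least 1 FPKM in either line, and 34.2% of those were higher in Jurkat. PSTPIP1, an adaptor of CD2, had 1.47 FPKM (1.28 to 1.67) in Jurkat and 21.8 (21.0 to 22.6) in TALL104, and CBLB, a ubiquitin ligase that restrains T-cell activation, had 1.71 (1.59 to 1.84) and 20.9 (20.5 to 21.4). In the mouse pair 10 were called higher in EL4 and 0 in IVA12, beside 23.8% and 26.5% of mouse genes at that level, with a median of 1.07. Lck, the kinase that starts T-cell receptor signalling, had 96.5 FPKM (94.5 to 98.5) in EL4 and 0.527 (0.374 to 0.720) in IVA12. Ptpn6, a phosphatase, had 266 FPKM (263 to 269) in EL4 and 6.31 (5.74 to 6.92) in IVA12.

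**Figure D4:**
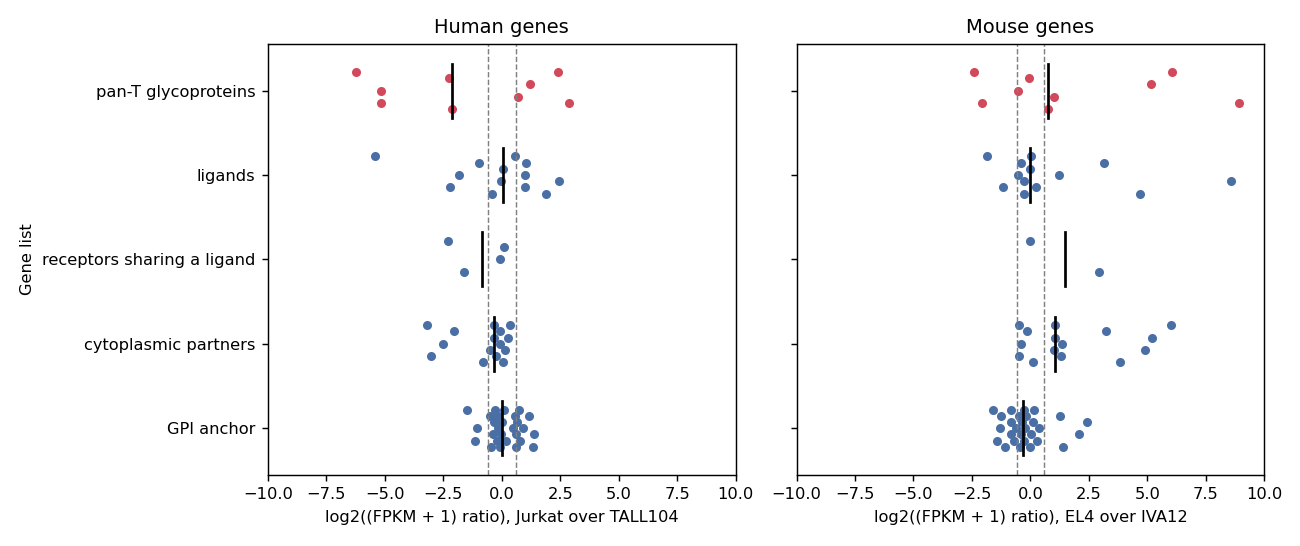
Log2((FPKM + 1) ratio) of each gene in the glycoprotein panel (red) and in the lists of ligands, receptors sharing a ligand, cytoplasmic partners and GPI-anchor genes (blue), for Jurkat over TALL104 (left) and EL4 over IVA12 (right), with each list's median as a black bar and the 1.5-fold threshold dashed; vertical scatter carries no value. The panel runs from -6.24 to 2.89 in the human pair and from -2.42 to 8.90 in the mouse pair, while the GPI-anchor genes run from -1.50 to 1.36 and from -1.60 to 2.40. CRTAM is drawn among the receptors sharing a ligand, although no ligand of it was read.

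For each gene of the panel, the gene with the most similar levels was found over the 4 libraries, among 15552 genes whose symbol is shared by both species. Likeness was the Euclidean distance in log2(FPKM + 1), where 0 is identical, and with only 4 points it is a description. The closest match was LRP12 to CD226, at a distance of 0.38, followed by NFYA to CD2 and CD40LG to CD7, both at 0.82, DENND5A to CD6 at 0.84 and PRPS2 to CD5 at 0.94. GZMA, the gene of granzyme A, was nearest to CD96 at 1.01, at 20.3 and 901 FPKM in Jurkat and TALL104 and 27.1 and 0.270 in EL4 and IVA12. CYTIP was nearest to CD44 at 1.57, at 0.0335 and 56.0 FPKM in Jurkat and TALL104 and 19.0 and 33.7 in EL4 and IVA12. SRGN, the proteoglycan of secretory granules, was nearest to CD52 at 1.89. THY1 had no close match, the nearest being EPHX1 at 2.98.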

How the data were processed

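Total RNA of each line was made into 1 stranded, poly(A)-selected library. The authors aligned paired reads with STAR 2.5.1b to a joint human (hg19) and mouse (mm10) reference and counted them per gene with featureCounts 1.6.3. The authors deposited FPKM for both species in 1 table; the gene lengths and the strand setting of these libraries are not given in the sources used here. Reads were recovered as whole multiples of 1 read per gene length (up to 300000 bases, relative tolerance 1e-12), which gave totals of 34783047 and 28345951 reads for Jurkat and TALL104, and 32149319 and 25286728 for EL4 and IVA12. Among genes with reads, 22.2% in human and 73% in mouse had a recovered length identical to the summed annotated exons, and a factor common to reads and length may be missed elsewhere, which widens intervals. The table had 0 further columns per library.

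Symbols, positions and overlaps came from GENCODE human release 44 on hg19 and mouse release M21 on mm10. Ratios were taken on FPKM + 1 within a species, with a gene called past 1.5-fold, and shares of all genes give the background. With 1 library per line no model or test was used. No fold was given against a gene at 0. Intervals of FPKM ratios were exact and conditional on the summed reads. Besides the 9 genes, the text names the 2 genes of largest absolute ratio in each list and pair, the nearest gene in pattern, and lineage markers. The markers named include low ones such as Pax5, Cd3d and Cd3e. Outside this rule, CD58, PVR, Pvr, Sectm1a and Sectm1b were named after their values were seen. The genes and lists were chosen with earlier results of these data known. Protein sequences were not used here. A lineage marker is not reported here. The calculation was tested on simulated data and run with Python 3.11.15, NumPy 2.4.6, pandas 2.3.3, SciPy 1.17.1 and matplotlib 3.10.9. The simulation took the annotated lengths as the true ones, so it did not test the recovery of reads where the lengths differ.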

Additional observations from a re-analysis of the deposited data

Results flagged for a closer look

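Reads on the panel's genes of the other species, which the comparisons between lines do not use, exceeded the 3 reads that a count of 0 allows in 8 cases. The human rows in IVA12 gave 6 of them, with CD52 at 0.211 FPKM, CD2 at 0.0942, CD96 at 0.0686, CD44 at 0.0629, CD5 at 0.0614 and CD6 at 0.0462. The human CD44 row had 0.0309 FPKM in EL4, and the mouse Thy1 row had 0.122 FPKM in TALL104. In all, the other species' 9 genes had 51 reads in IVA12, 17 in EL4, 8 in Jurkat and 7 in TALL104, or 0.273%, 0.0361%, 0.0437% and 0.00489% of the reads on the library's own 9 genes. The source of these reads was not tested.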

How the results depend on the processing

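No paired analysis was possible because each line had 1 library and no replicate numbers were shared; for the same reason no library could be left out. The alternatives were pseudocounts of 0.1 and 0.01, genes with at least 1 FPKM in either line, equal own-species totals, scaling by the median ratio, leaving out mitochondrially encoded genes, a 2-fold threshold and, for the 9 genes, a counting interval that excludes 1. No called gene of the panel turned its direction under them. Only the rescalings by totals, by the median ratio and without mitochondrially encoded genes could have turned one. The other alternatives keep the sign of a ratio. The 2-fold threshold lost CD226 and Cd2, a pseudocount of 0.01 made Cd7 pass at -2.17 on 1 read, and the filter left Cd7 out. Of 148 counts under an alternative, 7 moved by over 1.5-fold. Ligands higher in IVA12 became 5 at a pseudocount of 0.1 and 6 at 0.01, from 2, and receptors sharing a ligand higher in Jurkat became 1 at both, from 0. At 2-fold, GPI-anchor genes higher in Jurkat became 3, from 9, and those higher in IVA12 became 5, from 10. Ranked among genes above 0, 2 of the panel lay in the top 10% in Jurkat, from 1. Medians of the short receptor list were not used, since the human one ran from -0.86 to -2.81 and the mouse one, of 2 genes, from 1.47 to 3.55 across pseudocounts. Precision of the genes near 0 was limited by their 0 to 10 reads.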
